A study of Homo sapiens with 3 samples.

Results

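The amino acid and neurotransmitter carriers of the solute carrier (SLC) families 1, 3, 6, 7, 17, 18, 32, 36, 38 and 43 were read in stratified cultures of an immortalized human corneal epithelial cell line (iHCE). Members were all probe sets annotated to exactly 1 gene whose symbol falls in these families, 92 of 19071 probe sets with 1 gene, for 56 of 11963 genes. Of these 56 genes 15 were above background in every culture (26.8%), against 43.8% of all genes, a gap whose size depended on the processing. They were the heavy chain gene *SLC3A2* with its light chains *SLC7A5*, *SLC7A6* and *SLC7A11*, the cationic carrier *SLC7A1*, the neutral carriers *SLC1A4*, *SLC1A5*, *SLC38A1* and *SLC38A2*, the glutamate carrier *SLC1A3*, the creatine carrier *SLC6A8*, the proton-coupled carrier *SLC36A1*, and *SLC38A7*, *SLC38A10* and *SLC43A3*. None of the 6 vesicle-loading carriers measured was above background, and family 32 had no probe set here.

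Cells take up amino acids through carriers of several kinds. SLC1, SLC6 and SLC38 members mostly use the sodium gradient, many SLC7 members exchange one amino acid for another and need a heavy chain of family SLC3 to reach the membrane, and SLC36 and some SLC38 members work at the lysosome. SLC17 and SLC18 hold the carriers that fill secretory vesicles with glutamate, nucleotides, monoamines or acetylcholine, beside phosphate and sialic acid carriers. In the corneal epithelium amino acid carriers feed an avascular tissue and have been studied as routes for amino acid prodrugs given to the eye.

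The single group comprised 3 independent culture batches (cultures 1, 2 and 3), with 1 Affymetrix HG-U133A array each and no untreated or tissue group beside them. All came from the SV40-immortalized line, which carries the viral large T antigen, at passages 22 to 23, and were grown on collagen-coated filters for 7 days under medium and then with their apical side exposed to air. The shared medium held 15% serum, 0.3 mg/ml L-glutamine, 5 µg/ml insulin, 0.1 µg/ml cholera toxin, 10 ng/ml EGF and 0.5% DMSO, with 40 µg/ml ascorbic acid added at the air-liquid stage. Resistances were 489, 439 and 468 Ω · cm2 in cultures 1, 2 and 3. Being 1 transformed line in 1 medium, the cultures have no normal epithelium to be set against here.

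Values are the deposited log2 expression values. Background was set by 58 genes that belong to other tissues: a probe set had to pass their 95th percentile in every culture to be called above background. These thresholds were 7.18, 7.03 and 7.22 log2 units in cultures 1, 2 and 3. Probe sets differ in affinity, so a value says how far its own probe set lay over background, and levels of different genes were not ranked. With a single group there was no test between groups, and 3 arrays limit the precision of every SD.

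All 7 simple epithelial markers were above background (*KRT7*, *KRT8*, *KRT18*, *KRT19*, *EPCAM*, *CDH1* and *CLDN4*). None of the 6 corneal and stratified markers was (*KRT3*, *KRT12*, *PAX6*, *ALDH3A1*, *KRT5* and *KRT14*). The markers thus read as simple epithelial and did not bear out a corneal identity. The corneal label rests on the stated origin of the line. No neuronal (0 of 7), keratocyte (0 of 5), melanocyte (0 of 3), immune (0 of 4) or endothelial (0 of 4) marker was above background, and *TEK*, of endothelium, exceeded the threshold on 2 arrays. Pearson's r across probe sets was 0.987 to 0.994 between arrays.

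Sequence near the transcription start was examined first for the core of the amino acid response element, TGATGNAA with N any base, which the factor ATF4 and its partners are known to bind when amino acids run short. It was searched on both strands, from 250 bases before to 50 bases after each start listed in RefSeq (assembly GRCh38.p14). Of the 15 genes above background 13 had such a window, and 6 of these held the motif. The share was 46.2% of these genes, against 6.9% (2 of 29) of the other members with a window, 2.94% of all genes above background with a window and 4.46% of all genes with a window. Counted by window, the shares were 26.1% for the members above background and 5.26% for the other members. They were 2.17% for all genes above background and 3.62% for all windows. Windows numbered 23 for the 13 members above background and 38 for the 29 other members. They numbered 6626 for 4452 genes above background and 35116 for 27305 genes in all. A gene with more windows has more room for a match, which the shares by gene include. The 6 matches are given in 30 bases each, in the direction of the gene. They mark where the motif lies in the carriers that were read above background. Binding at these matches was not tested. Capitals mark the match, which is written as TTNCATCA where it lies on the opposite strand.
*SLC1A3*, chr5:36596357-36596386, plus strand: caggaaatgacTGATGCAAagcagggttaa
*SLC1A4*, chr2:64989381-64989410, plus strand: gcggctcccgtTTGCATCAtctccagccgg
*SLC1A5*, chr19:46784893-46784922, minus strand: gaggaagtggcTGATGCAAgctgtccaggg
*SLC38A1*, chr12:46266502-46266531, minus strand: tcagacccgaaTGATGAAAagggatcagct
*SLC3A2*, chr11:62881719-62881748, plus strand: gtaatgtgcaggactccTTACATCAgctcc
*SLC7A1*, chr13:29595663-29595692, minus strand: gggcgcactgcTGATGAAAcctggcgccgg

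The matches lay at different places. Their first base was 220 bases before the start in *SLC1A3*, 97 in *SLC1A5*, 7 in *SLC1A4* and 4 in *SLC38A1*, and after the start, at base 38 in *SLC3A2* and base 8 in *SLC7A1*. The same 8 letters, TGATGCAA, stood in *SLC1A3* and *SLC1A5* and, on the opposite strand, in *SLC1A4*. *SLC38A1* and *SLC7A1* shared TGATGAAA. Each match was found in 1 window of its gene, of 3 for *SLC1A3*, *SLC1A5* and *SLC3A2*, 2 for *SLC1A4* and *SLC38A1*, and 1 for *SLC7A1*. The other members with a match were *SLC17A3* and *SLC17A7*, neither above background. *SLC7A11* and *SLC43A3* had no window in the table. The 250 bases before the start of *SLC1A5*, chr19:46784815-46785064 on the minus strand, are given as an example of a match that lies wholly before the start with its surroundings, the match in capitals.
*SLC1A5*: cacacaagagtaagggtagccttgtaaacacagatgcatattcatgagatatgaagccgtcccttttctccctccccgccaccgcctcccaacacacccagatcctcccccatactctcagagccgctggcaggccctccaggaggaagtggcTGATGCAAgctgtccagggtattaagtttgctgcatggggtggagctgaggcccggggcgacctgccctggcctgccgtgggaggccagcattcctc

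Of the 92 member probe sets 19 were above background on all arrays (20.7%), against 35.3% of all probe sets with 1 gene. By gene, each read at its brightest probe set by mean, 15 of 56 were (26.8%), against 43.8% of all genes. With plain _at probe sets alone, where the thresholds were also lower, the shares were 45.9% and 47.7%. A further 4 genes exceeded the threshold on 1 or 2 arrays, and 37 on none. The families divided unevenly, with 4 of 8 SLC38 genes, 4 of 10 SLC7 genes, 3 of 7 SLC1 genes and 1 of 15 SLC6 genes above background, and none of the 8 SLC17 and 3 SLC18 genes. The shares in SLC38 (50%), SLC7 (40%) and SLC1 (42.9%) were near the 43.8% of all genes, while that in SLC6 was 6.67%. In SLC3 and SLC43 it was 1 gene of 2 each, and *SLC36A1* was the only SLC36 gene measured. The low share in SLC6 depended on the setting. With the 90th percentile of the panel or plain _at probe sets alone, *SLC6A2*, *SLC6A3*, *SLC6A7* and *SLC6A13* were above background too. The shares of all genes were 55.1% and 47.7% in these settings. No difference between families was tested.

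**Figure D1:**
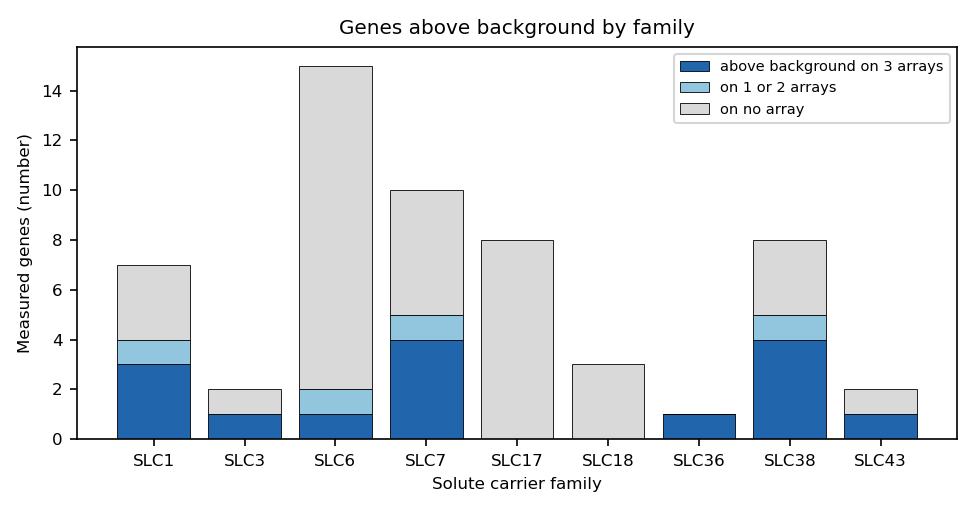
Number of measured genes in each solute carrier family, split by whether the brightest probe set of the gene was above background on all 3 arrays, on 1 or 2, or on none. SLC38 and SLC7 each hold 4 genes above background, and SLC17 and SLC18 hold none.

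The heavy chain gene *SLC3A2* and 3 light chain genes were above background. *SLC3A2*, also known as CD98 heavy chain, read 10.48, 9.94 and 10.19 in cultures 1, 2 and 3 (10.20 ± 0.27, SD, n = 3). Its light chain *SLC7A5*, the large neutral amino acid exchanger that brings in leucine, read 12.31, 12.27 and 12.37 (12.32 ± 0.05). Every array lay at least 5.13 log2 units over its threshold for this probe set, and no culture stood apart. *SLC7A5* has pseudogenes of near-identical sequence, and its only probe set is of the _s_at type, which can bind several transcripts, so signal from these copies cannot be told apart.

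*SLC7A11*, the light chain that exchanges glutamate for cystine and feeds glutathione synthesis, read 9.11, 9.45 and 9.83 in cultures 1, 2 and 3 (9.46 ± 0.36). Culture 1 was lowest and culture 3 highest. Its 2 other probe sets were not above background, at 6.21, 6.45 and 6.96 and at 5.44, 5.55 and 5.73, but ordered the cultures the same way. *SLC7A6*, which exchanges cationic for neutral amino acids, read 9.38, 9.24 and 9.10 (9.24 ± 0.14) at its highest probe set, while its others, at 6.32, 6.11 and 5.83 and at 5.30, 5.20 and 5.45, were above background on no array.

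The remaining partners of these heavy chains were not above background on all arrays. *SLC7A8*, a further neutral exchanger, came nearest, with 7.57, 7.61 and 7.22 at its highest probe set. The value in culture 3 equalled that array's threshold to 2 decimals and did not exceed it. Of its other probe sets 1 read 7.34, 6.92 and 6.87, above the threshold in culture 1 alone, another read 5.05, 4.48 and 4.64, and the remaining ones had means of 6.14 and 6.55. *SLC7A7* (6.71 ± 0.16), whose loss causes lysinuric protein intolerance, and *SLC7A10* (4.89 ± 0.03), an exchanger of small neutral amino acids, were above background on no array. The other heavy chain, *SLC3A1*, had means of 4.87 and 4.25 at its probe sets, and its light chain *SLC7A9*, with which it forms the cystine carrier of the kidney, 6.19 ± 0.09. Neither chain of that renal carrier exceeded the threshold on any array.

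The cationic amino acid carriers of SLC7 work without a heavy chain. *SLC7A1*, which carries arginine and lysine, read 11.51, 11.09 and 11.41 in cultures 1, 2 and 3 (11.34 ± 0.22) at its highest probe set. Its 5 probe sets gave different calls. A further probe set read 7.27, 7.36 and 7.74, with the smallest margin of all called members, 0.09 log2 units, another read 5.84, 5.31 and 5.81, and the remaining ones 5.11, 4.97 and 5.01, and 4.75, 4.54 and 4.65. The gap of 6.69 log2 units between the highest and the lowest mean was the widest among the members. *SLC7A2* (4.50 ± 0.03), a related arginine carrier, and *SLC7A4*, an orphan of this group that read 6.15, 5.47 and 5.79 at its higher probe set, were above background on no array.

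Sodium-coupled carriers of neutral amino acids were found on both sides of the thresholds. *SLC38A2*, a glutamine and alanine carrier that rises in many cells when amino acids are scarce, read 11.15, 11.27 and 11.18 in cultures 1, 2 and 3 (11.20 ± 0.06). Its other probe set, at 10.73, 10.89 and 10.91 (10.84 ± 0.10), was also above background, which made *SLC38A2* the only one of the 17 members with several probe sets for which all were called. *SLC38A1*, a related glutamine carrier, read 10.45, 10.69 and 10.64 (10.60 ± 0.13).

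*SLC1A5*, the exchanger of glutamine, serine and alanine, read 8.34, 8.17 and 8.19 (8.23 ± 0.09), with culture 1 highest by a small step. *SLC1A4*, which exchanges alanine, serine and cysteine, was above background at 3 of its 4 probe sets. The highest of these read 8.77, 8.89 and 8.79 (8.81 ± 0.06), the other called ones read 8.19, 8.32 and 8.65, and 7.69, 8.06 and 8.14, and the remaining one read 6.62, 6.43 and 6.31. The liver-type carrier *SLC38A4* (3.82 ± 0.09) and *SLC38A3* (5.72 ± 0.05), a glutamine carrier of liver and brain, were above background on no array.

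Among the other SLC36 and SLC38 members, *SLC36A1*, which moves small amino acids out of the lysosome with protons, read 7.90, 8.70 and 8.50 in cultures 1, 2 and 3 (8.37 ± 0.42). *SLC38A7*, the lysosomal glutamine carrier, read 7.65, 7.45 and 7.48 (7.53 ± 0.11). The margin of *SLC38A7* was as little as 0.26 log2 units. Its other probe sets read 7.19, 7.12 and 6.87, above the threshold on 2 arrays, and 5.27, 5.17 and 5.42. The less studied *SLC38A10* read 8.68, 8.57 and 8.38 (8.54 ± 0.15), *SLC38A12* read 6.44, 7.16 and 6.64, above the threshold in culture 2 alone, and *SLC38A6* had a mean of 6.57 ± 0.20.

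In SLC43, *SLC43A3*, now known to carry purine bases, read 9.27, 9.21 and 9.38 in cultures 1, 2 and 3 (9.28 ± 0.09). Its other probe set read 6.29, 6.24 and 6.75 and was above background on no array. *SLC43A1*, a carrier of branched-chain amino acids, stayed below the thresholds at 6.61 ± 0.03. It was above background with the 90th percentile of the panel, the array median, plain _at probe sets alone and the mean over probe sets.

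Among the carriers that clear transmitters from outside the cell, *SLC1A3* alone was above background, 1 of 13 genes, against 43.8% of all genes. The count was 5 of 13 with the 90th percentile of the panel, which added *SLC1A2*, *SLC6A2*, *SLC6A3* and *SLC6A13*, and 0 with the highest panel value. The shares of all genes were 55.1% and 14.7% with these thresholds. With plain _at probe sets alone the count was 5 of 11, against 47.7% of all genes. With the mean over probe sets it was 3 of 13, against 48.8%. The thresholds were also lower in both of these settings. *SLC1A3*, a glutamate carrier best known from glia, read 8.15, 8.37 and 8.03 in cultures 1, 2 and 3 (8.19 ± 0.17), at least 0.81 log2 units over the thresholds. The glutamate carrier of epithelia and neurons, *SLC1A1*, read 5.63, 5.86 and 6.71 at its higher probe set and had a mean of 5.14 at the other. This probe set of *SLC1A1* had the widest range of all 92, 1.09 log2 units, all of it below the thresholds. *SLC1A2* read 6.84, 7.04 and 6.88 at its highest probe set, above the threshold in culture 2 alone, and *SLC1A6* (6.40 ± 0.07) and *SLC1A7* (6.15 ± 0.16) on no array.

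The monoamine, glycine and GABA carriers of SLC6 gave no value above background on all arrays. The noradrenaline carrier *SLC6A2* was read by 7 probe sets, with means from 3.75 to 6.87, and the dopamine carrier *SLC6A3* (6.54 ± 0.03), the serotonin carrier *SLC6A4* (5.96 ± 0.10) and the glycine carriers *SLC6A5* (5.62 ± 0.09) and *SLC6A9* (5.06 ± 0.18) lay below the thresholds as well. Of the GABA carriers *SLC6A13* read 7.24, 6.85 and 6.76, above the threshold in culture 1 alone, while *SLC6A11* (6.11 ± 0.08) and the betaine and GABA carrier *SLC6A12* (5.29 ± 0.21) did not reach it. *SLC6A8*, the creatine carrier, was the only SLC6 gene above background. It read 8.02, 7.89 and 7.80 (7.90 ± 0.11), and its other probe sets exceeded the threshold on 2 arrays (7.26, 7.20 and 7.09) and on 1 (6.88, 7.04 and 6.53).

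The amino acid and osmolyte carriers of SLC6 were also not above background, although *SLC6A7* was in some other settings. These were the 90th percentile of the panel, the array median, plain _at probe sets alone and the mean over probe sets. The taurine carrier *SLC6A6* had means of 5.19, 5.05 and 4.23 at its 3 probe sets. The proline carrier *SLC6A7* (6.89 ± 0.01), the imino acid carrier *SLC6A20* (4.58 ± 0.15), *SLC6A14* (3.90 ± 0.07), a broad carrier of neutral and cationic amino acids studied for prodrug uptake, and *SLC6A15* (5.37 ± 0.12) and the orphan *SLC6A16* (5.12 ± 0.06) exceeded the threshold on no array.

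The 6 measured carriers that load vesicles were all below the thresholds. With the 90th percentile of the panel *SLC17A7* was above background, where 55.1% of all genes were. With the median of each array *SLC17A7* and *SLC17A9* were, beside 57.2% of all genes. Both were also above background with plain _at probe sets alone, beside 47.7% of all genes. The panel too was read at plain _at probe sets there, which lowered the thresholds, while the values of *SLC17A7* and *SLC17A9* stayed the same. The vesicular glutamate carrier *SLC17A7* read 6.87, 6.98 and 6.76 at its higher probe set and *SLC17A6* had a mean of 4.43 ± 0.03. *SLC17A9*, which loads nucleotides, read 6.90, 6.40 and 6.76. The monoamine carriers *SLC18A1* and *SLC18A2* had means of 4.96 ± 0.16 and 4.90 ± 0.15, and the acetylcholine carrier *SLC18A3* read 5.01, 5.17 and 5.66. The phosphate and anion carriers *SLC17A1*, *SLC17A2*, *SLC17A3* and *SLC17A4* had means of 5.10 to 5.76, and the sialic acid carrier *SLC17A5*, which acts in every lysosome, 6.15 ± 0.17.

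**Figure D2:**
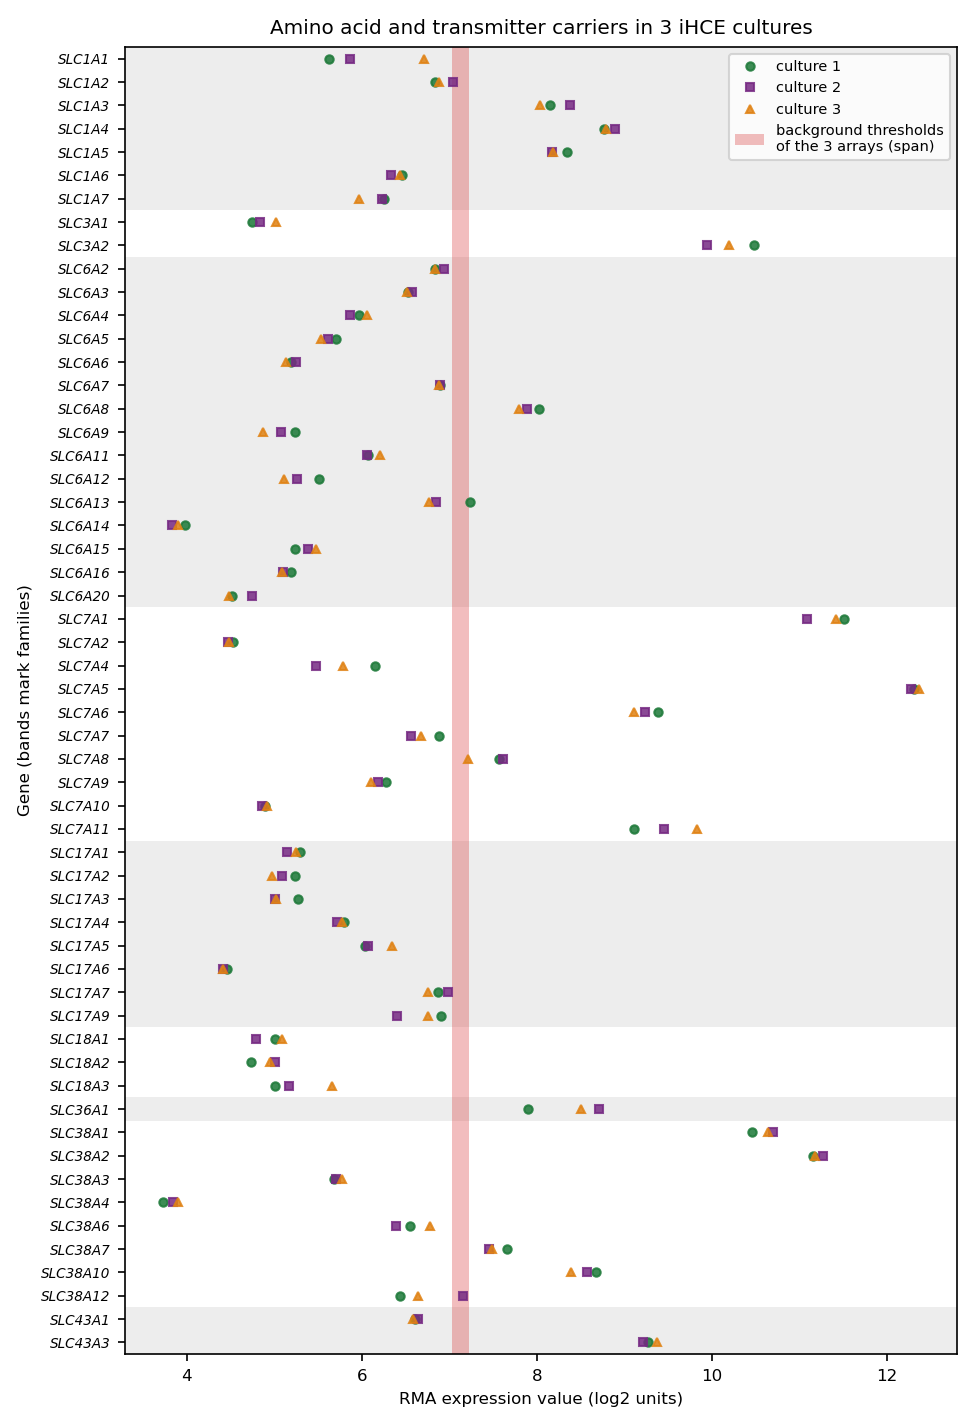
Log2 expression value of each of the 56 genes at its highest probe set, with 1 point per culture and the span of the 3 array thresholds (7.03 to 7.22) as a band. The 15 genes above background lie wholly to the right of the band, and distances between genes also reflect probe affinity.

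Several probe sets of 1 gene often gave different calls. Of the 17 member genes with several probe sets 7 were split between called and not called (41.2%), against 41.1% of all genes with several. The split genes were *SLC1A4*, *SLC6A8*, *SLC7A1*, *SLC7A6*, *SLC7A11*, *SLC38A7* and *SLC43A3*. Of the 32 probe sets of the 15 genes above background 13 were not called. For the 41 genes not above background, none of their 60 probe sets was above background on all arrays. Requiring every probe set of a gene to be called left 8 genes, *SLC1A3*, *SLC1A5*, *SLC3A2*, *SLC7A5*, *SLC36A1*, *SLC38A1*, *SLC38A2* and *SLC38A10*, of which *SLC38A2* alone has more than 1 probe set. These were 14.3% of the member genes, against 29.0% of all genes under the same rule.

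**Figure D3:**
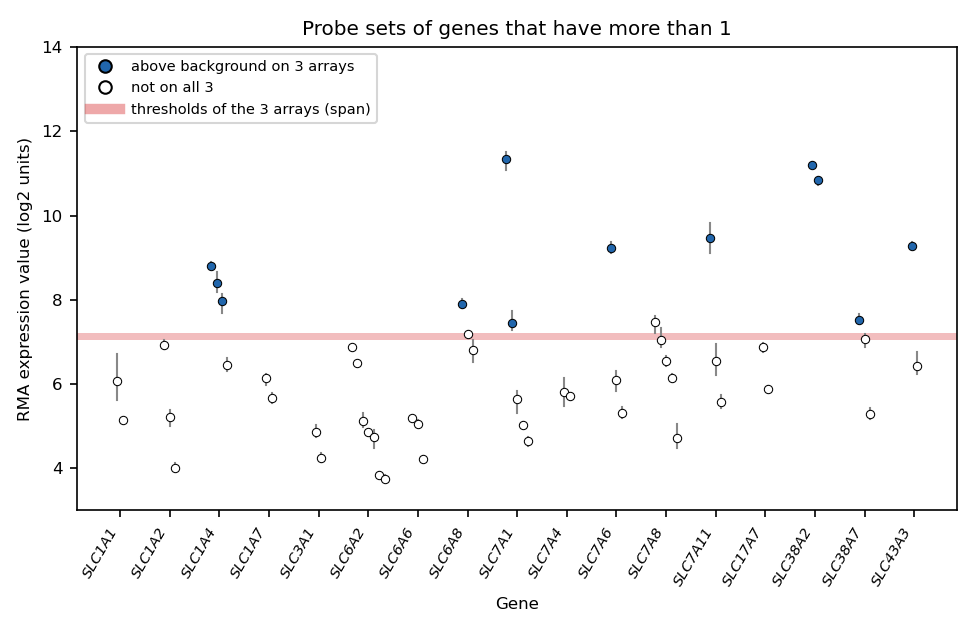
Mean log2 expression value of every probe set of the 17 member genes that have more than 1, with the range over the 3 cultures as a line and the thresholds as a band. Filled points were above background on all 3 arrays, and *SLC7A1* spans 6.69 log2 units between its highest and lowest probe set.

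The spread of the carriers over the cultures was near that of all probe sets. The median SD over the cultures was 0.12 log2 units over the member probe sets and 0.14 over the 19 called ones, against 0.14 for all probe sets with 1 gene and 0.15 for all called ones. A range of at least 0.5 log2 units was found in 13 of the 92 (14.1%), against 15.9% of all probe sets, and a range of at least 1 in 1, the probe set of *SLC1A1*, against 1.28%. Among the 19 called probe sets 3 ranged over 0.5 log2 units or more, against 17.7% of all called probe sets. They belonged to *SLC36A1* (0.81), lowest in culture 1, *SLC7A11* (0.73), lowest in culture 1 and highest in culture 3, and *SLC3A2* (0.54), highest in culture 1 and lowest in culture 2. *SLC3A2* and its light chain *SLC7A11* were thus at opposite ends in culture 1.

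The array of culture 1 is the one that differs most from the others over all genes. Of the called members only *SLC36A1* was at least 0.5 log2 units lower in culture 1 than in both others, against 4.66% of all called probe sets, and none was as much higher, against 2.33%. Over the called members culture 1 was lowest at 9 probe sets and highest at 7, and the median difference of culture 1 from the average of the others was -0.05 log2 units, beside -0.01 over all called probe sets. Outside the called members, wide ranges were seen at *SLC38A12* (0.72), *SLC7A4* (0.68), *SLC18A3* (0.65), the lowest probe set of *SLC7A8* (0.57) and a probe set of *SLC7A1* (0.53), all read within background at least in part.

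**Figure D4:**
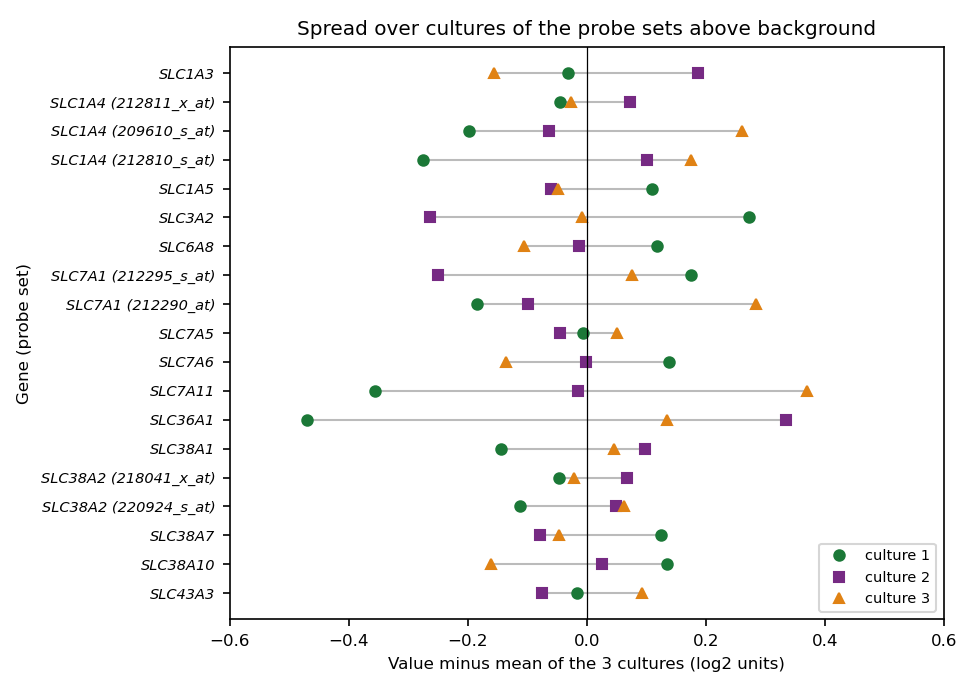
Deviation of each culture from the mean of the 3 cultures, in log2 units, for the 19 probe sets above background. *SLC36A1* and *SLC7A11* show the widest spread, with culture 1 lowest, and *SLC7A5* one of the narrowest.

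Among genes that act around these carriers, most of those measured in glutathione metabolism and in glutamine and glutamate metabolism were above background. Of 6 measured genes of glutathione metabolism 4 were above background, the synthetic enzymes *GCLC* (8.35 ± 0.10), *GCLM* (8.24 ± 0.18) and *GSS* (10.75 ± 0.03) and the glutathione-degrading *CHAC1* (8.04 ± 0.09). The reductase *GSR* exceeded the threshold on 1 array and *GGT5* on 2. Of 9 genes of glutamine and glutamate metabolism 7 were above background, among them the glutamine synthetase gene *GLUL* (10.22 ± 0.23), the transaminase *GOT2* (11.27 ± 0.07) and the asparagine synthetase *ASNS* (11.10 ± 0.16), and *GLUD1* and *PPAT* exceeded the threshold on 1 array each. The background for these counts is the 43.8% of all genes. With the highest panel value the counts were 1 of 6 and 4 of 9, against 14.7% of all genes.

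In the sensing of amino acids by the kinase mTOR, 16 of 20 measured genes were above background, against 43.8% of all genes. The count was 5 with the highest panel value, against 14.7% of all genes. *MTOR* read 7.69, 7.88 and 7.95, its activator *RHEB* 11.95, 11.85 and 11.74, and the Rag GTPase *RRAGA* 9.99, 10.13 and 10.02 in cultures 1, 2 and 3. The amino acid response factor *ATF4*, the core of whose known element was searched near the starts, read 11.90, 11.94 and 11.79 (11.88 ± 0.08). *MLST8*, an mTOR subunit, read 8.46, 7.32 and 7.28 and so stood higher in culture 1. The 4 genes not above background were *RRAGB*, *RRAGD*, *SESN1* and *FLCN*.

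No gene of transmitter metabolism was above background, 0 of 12 against 43.8% of all genes. With the 90th percentile of the panel, the array median or plain _at probe sets alone, 1 gene was. The shares of all genes were 55.1%, 57.2% and 47.7% in these settings. Means of the 12 lay between 3.71 for *TPH1*, of serotonin synthesis, and 6.73 for the monoamine oxidase *MAOA*. The glutamate decarboxylases *GAD1* (6.56 ± 0.36) and *GAD2* (5.59 ± 0.16), which make GABA, and the tyrosine hydroxylase *TH* (4.91 ± 0.14) were among the 12. Of 5 genes of creatine and taurine metabolism none was above background, against the same 43.8% of all genes. The creatine synthesis gene *GAMT* exceeded the threshold in culture 1 (7.47, 6.75 and 6.85), and *GATM* (5.61 ± 0.09), the creatine kinase *CKB* (6.55 ± 0.36) and the taurine synthesis genes *CSAD* (6.27 ± 0.06) and *CDO1* (4.32 ± 0.11) on none.

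Genes of these families without a probe set that names 1 gene were not analysed here, and SLC32 was the only family without a member.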

How the data were processed

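RNA of 3 iHCE cultures was hybridized to HG-U133A arrays. The authors computed log2 expression values by RMA (R 2.8.0, per the submitters' processing notes), which corrects background, normalizes between arrays and summarises probe sets, and compresses low values. The methods describe RMA over the cultures' and tissue arrays together; whether the deposited table comes from that run, and the genome build, are not given in the sources used here. Of 22283 probe sets 19071 had 1 gene symbol, 1043 several and 2169 none. Symbols were updated through Entrez numbers in RefSeq (GRCh38.p14), where 12 probe sets were not found, none of them a member. A gene was read at its probe set with the highest mean.

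The threshold was the 95th percentile of 58 measured of 68 listed genes of other tissues, of which *MBP* and *SFTPB* were themselves above it. By rule, values in each culture were given for members above background, above the threshold on 1 or 2 arrays, split between probe sets, or among the 10 probe sets of largest range; means were given for more of the other members than the 3 a family that the rule allowed. Members and lists were chosen with earlier results of these data known, and the split into transmitter uptake and vesicle carriers, and the sequences shown, after values were seen. Alternatives were other thresholds, quantile normalization, each replicate left out, other probe set rules and a one-sided limma test (limma 3.58.1, Benjamini-Hochberg adjusted p under 0.05). The steps were tested on simulated data. Python 3.11.15 and R 4.3.3 were used.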

Additional observations from a re-analysis of the deposited data

How the results depend on the processing

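The count of 15 genes and 19 probe sets above background depended on the threshold. It was 24 genes and 32 probe sets with the 90th percentile of the panel, 27 and 37 with the median of each array, and 6 and 7 with the highest panel value, which was that of *MBP*; the shares of all genes were 55.1%, 57.2% and 14.7%. The 6 genes were *SLC3A2*, *SLC7A1*, *SLC7A5*, *SLC7A11*, *SLC38A1* and *SLC38A2*. With every probe set of a gene required the count was 8 genes (14.3%, against 29.0% of all genes). *SLC38A7* was lost with the median plus 3 scaled MADs (14 genes, 25%, against 34.2% of all genes). *SLC7A8* was gained without replicate 3 and by limma's test (16 genes each, 28.6%), where 45.3% and 42.6% of all genes were above background. Without replicate 1, 2 or 3 the genes ranged from 15 to 16 and the probe sets from 19 to 22, beside 44.0% to 45.7% of all genes. With only plain _at probe sets 17 of 37 genes (45.9%) were above background, against 47.7% of all genes, with 8 of the 15 among them. The panel was then read at plain _at probe sets too, which lowered the thresholds. The thresholds also fell with the mean over probe sets, where 20 genes (35.7%) were above background, against 48.8% of all genes. The counts of these settings thus reflect the threshold as well. Transmitter uptake carriers, 1 of 13, numbered 5 with the 90th percentile and the array median, 3 with the mean over probe sets, 0 with the highest panel value and 5 of 11 with plain _at probe sets; vesicle carriers, 0 of 6, numbered 1 with the 90th percentile, 2 with the array median and 2 of 5 with plain _at probe sets.

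Of the lists, glutathione had 1, glutamine and glutamate 4 and amino acid sensing 5 genes with the highest panel value, and glutamine and glutamate 3 of 3, amino acid sensing 7 of 10 and simple epithelial markers 2 of 2 when _x_at and _s_at probe sets were dropped. The transmitter, corneal, keratocyte, immune, and creatine and taurine lists had 1 and the endothelial list 2 with the 90th percentile and with the array median, where the neuronal list also had 1. Without _x_at and _s_at probe sets the transmitter, creatine and immune lists had 1 and the endothelial list 2, and with the mean over probe sets the creatine, corneal, immune and endothelial lists had 1. The endothelial list ranged from 0 to 1 without replicate 1, 2 or 3.

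Ranges of at least 0.5 log2 units numbered 8 of 47 without _x_at and _s_at probe sets, 3 of 19 among called probe sets, where none reached 1, and 5 to 7 without replicate 1, 2 or 3, where 0 to 1 reached 1 log2 unit. Without replicate 2 or 3, culture 1 was at least 0.5 lower at 1 to 2 called probe sets and higher at 0 to 1. No paired analysis was possible because there is a single group. All causes were not tested. The 3 arrays limit every SD, and members within about 0.5 log2 units of the threshold, such as *SLC38A7* and *SLC7A8*, are not firmly on either side.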

Other observations

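A probe set that names *SLC6A8* together with its pseudogenes *SLC6A10P* and *SLC6A10PB*, and so is no member by the rule, read 7.59, 7.51 and 7.51 in cultures 1, 2 and 3 (7.54 ± 0.04, SD, n = 3), above background on all 3 arrays.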
